A study of Arabidopsis thaliana with 6 samples.

Results

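The chloroplast genome of Arabidopsis encodes core subunits of the complexes that carry out photosynthesis, and the transcripts of 43 such genes were followed here on 6 ATH1 arrays. They were all probe sets assigned to 1 gene of the plastid genome whose symbol starts with psa, psb, pet, atp, ndh or rbcL, 43 of 22810 probe sets on the array. Photosystem I was represented by 5 genes, photosystem II by 15, the cytochrome b6f complex by 6, the ATP synthase by 6, the NDH complex by 10 and Rubisco by *rbcL*. The annotation lists 45 plastid loci under these symbols. The 2 that are missing are both copies of *ndhB*, which share a probe set. The mutant group held 3 samples of *fbp7-3*, a mutant of the F-box protein gene *FBP7* in the Nossen background. It was set against 3 samples of wild type seedlings of the same accession (No-0). All seedlings were grown in light and harvested at 5 days, about 80 mg of tissue per sample. No rescue line or further allele is among the samples, so the allele and any other difference between the lines cannot be told apart. Nothing in the labels shows that replicates came from separate sowings, and p-values then measure only the spread between these samples, which may be technical.

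Photosystem II splits water and reduces plastoquinone, the cytochrome b6f complex passes the electrons on to plastocyanin, and photosystem I uses light again to reduce ferredoxin. The proton gradient built on the way drives the ATP synthase. The NDH complex returns electrons from ferredoxin to plastoquinone in cyclic flow around photosystem I, and Rubisco fixes carbon dioxide. Each complex also has subunits encoded in the nucleus. Plastid genes are mostly transcribed in clusters, and their long precursor RNAs are cut and edited. In chloroplasts, addition of a poly(A) tail marks RNA for decay, whereas the one-cycle labelling used here makes cDNA with an oligo(dT) primer, so plastid signals on this array need not be proportional to the pool of mature RNA.

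Signals were deposited as MAS5 intensities on a linear scale, and changes are differences of log2(signal + 16), mutant minus wild type. Of 22746 analysed probe sets, 17059 passed a filter on dim signals and were tested with limma, and all 43 members were among them. Signals of the members ran from 139.9 to 41493.5, and array medians over all analysed probe sets lay between 188.7 and 200.7. A probe set's signal depends on its probes, so levels are compared between arrays and not between genes. In the whole seedlings the green tissue markers *LHCB4.1* and *LHCB4.2* were bright, the other 8 green tissue markers on the list were not analysed here, and 3 of 5 root and root hair markers were tested. Within a group, arrays correlated at r = 0.976 to 0.98 over the tested probe sets, and between groups at 0.9689 to 0.9756. With 3 arrays in each group, precision is limited by their number.

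In *fbp7-3* seedlings, transcripts of the plastid-encoded photosynthetic genes were mostly somewhat higher than in wild type, but only *psbN* passed the test, and without wild type replicate 1 the median change over the members was close to 0 (0.03). Of the 43 members, 40 had a log2 change above 0, against 49.9% of all tested probe sets, and their median change was 0.19. Under quantile normalization 34 lay above 0, against 50%, with a median of 0.16. Only *psaI*, *ndhA* and *rbcL* lay below 0. At an adjusted p under 0.05 over all 17059 probe sets, 1 member was higher and 0 were lower (limma), where 0.522% of all tested probe sets were called higher and 0.533% lower. At an unadjusted p under 0.05, 12 members were higher and 0 were lower, against a background of 5.54% and 6.24%. All mutant arrays lay above all wild type arrays for 7 members, *atpI*, *ndhE*, *ndhF*, *ndhG*, *petD*, *psbC* and *psbN*, where the background was 8.45%. For no member did all mutant arrays lie below all wild type arrays (background 8.56%), and for the other 36 the groups overlapped.

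Wild type replicate 1 stood apart from the other arrays in these genes. It held the lowest of the 6 signals for 38 of 43 members, against 19.3% of all tested probe sets. The exceptions were *ndhC*, *ndhF*, *petN*, *psbA* and *psbI*. Its members lay a median of 0.45 below the mean of wild type replicates 2 and 3 on the log2 scale (difference −0.45), whereas over all tested probe sets this difference had a median of −0.01. Wild type replicates 2 and 3 differed from each other by a median of 0.10 for the members. This median was 0.19 over all tested probe sets and 0.20 over the other plastid-encoded probe sets. Those backgrounds were not matched to the members in signal. At the other end, mutant replicate 1 held the highest signal for 26 members, against a background of 14.5%. With each gene centred on its own mean, the members' median was 0.25, −0.01 and 0.07 on mutant replicates 1, 2 and 3, and −0.41, 0.08 and 0.02 on wild type replicates 1, 2 and 3. Mutant replicates 2 and 3 thus lay close to wild type replicates 2 and 3.

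**Figure D1:**
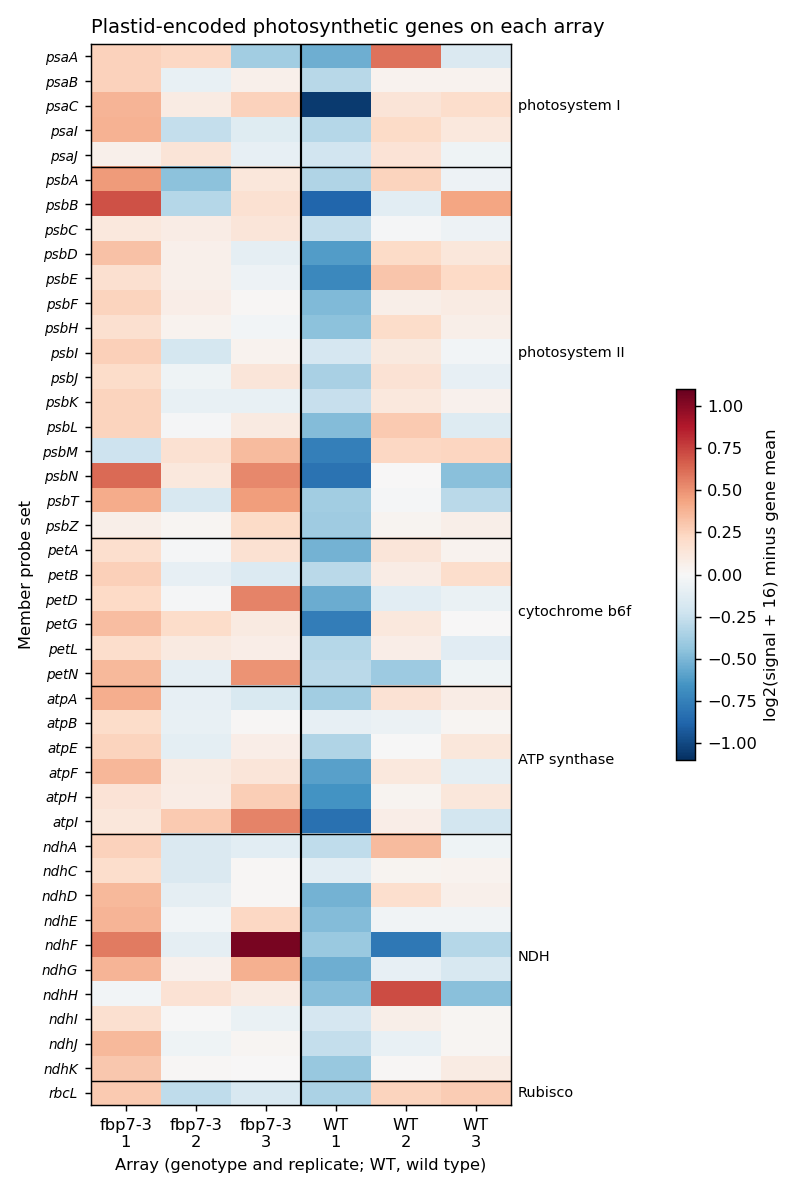
Colour gives log2(signal + 16) of each of the 43 members on each array minus that gene's mean over the 6 arrays, with *fbp7-3* replicates on the left and wild type (WT) replicates on the right, grouped by complex. Wild type replicate 1 is the lowest array for 38 members, and mutant replicate 1 the highest for 26.

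Without wild type replicate 1, 25 of 43 members had a change above 0, against 48.6% of all tested probe sets, and the median was 0.03. None passed, where 0.287% of all tested probe sets were called higher, and *psbN* had a change of 0.65 (limma adjusted p = 0.147). All mutant arrays lay above wild type replicates 2 and 3 for 7 members, where the background was 13%. These were the 7 listed above, which had to meet this looser condition, and no further member joined them. With mutant replicate 1 left out as well, a choice made after the values were seen, 18 members lay above 0, against 50.1%, and the median was −0.03.

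The 5S and 25S ribosomal RNA controls, like most members, were lowest on wild type replicate 1. The 5S ribosomal RNA control had signals of 1593.3, 1456.4 and 1666.2 on the mutant arrays, against 692.5, 1328.2 and 1144.0 on the wild type arrays. Every mutant array lay above every wild type array, and wild type replicate 1 was the lowest here too (two-sided exact permutation p = 0.1, the smallest that 3 against 3 allows). The log2 difference of the 5S control, mutant minus wild type, was 0.63, and it was 0.35 without wild type replicate 1. The median change of the members was 0.19 and 0.03 in the same 2 settings. The 25S control had signals of 181.4, 116.2 and 144.2 on the mutant arrays, against 100.6, 163.6 and 146.3 on the wild type arrays. The groups overlapped, with means of 147 ± 32.7 for *fbp7-3* and 137 ± 32.5 for No-0 (SD, n = 3 each). The exact permutation p was 0.7. The log2 difference of the 25S control was 0.11, and −0.09 without wild type replicate 1. Its lowest array was wild type replicate 1 and its highest was mutant replicate 1. Those arrays were also most often the lowest and the highest for the members. Of 6 ratios of 3′ to 5′ signal in actin, GAPDH and ubiquitin controls, which rise as RNA is degraded or cDNA is cut short, 3 were higher on every mutant array. The mean log2 value of all 6 ratios, used as an RNA quality index, was 1.07, 1.1 and 1.33 on the mutant arrays. On the wild type arrays it was 0.998, 0.878 and 0.989. Wild type replicate 1 was not low in this index. With the index as a covariate all 43 members had changes above 0, against 47.6% of all tested probe sets, with a median of 0.35, and none passed (background for higher calls, 0.0938%). The index was higher on every mutant array than on every wild type array. It is thus confounded with genotype, and changes from this fit, here and below, cannot separate RNA quality from genotype. The parts of the 5S and 25S signals in the result were not tested.

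**Figure D2:**
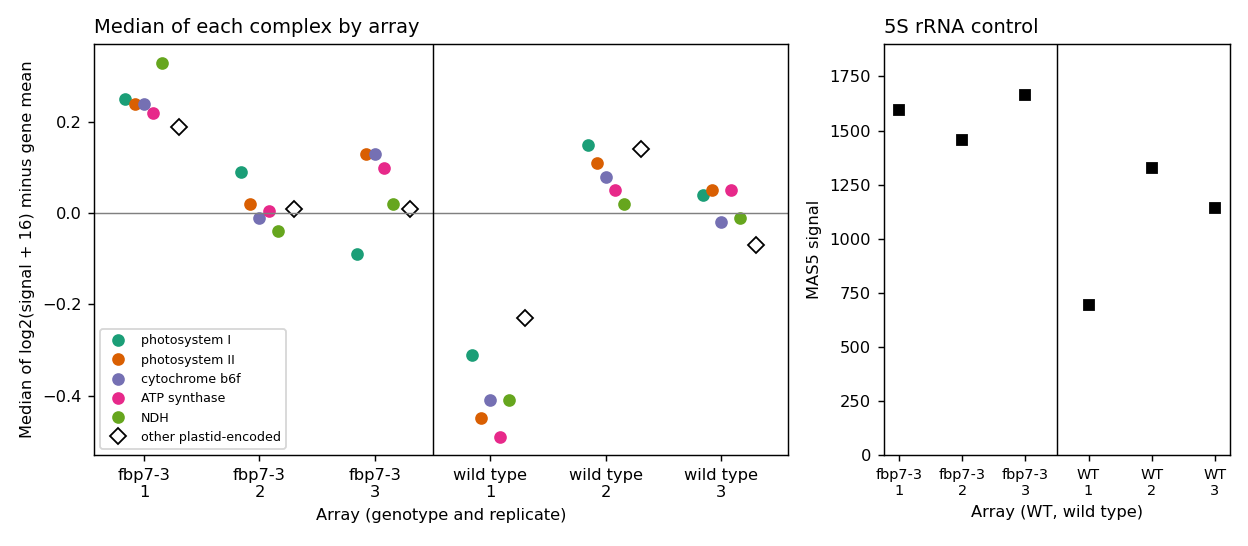
The left panel plots, for each array, the median of log2(signal + 16) minus the gene mean in each complex (filled circles) and in the other plastid-encoded genes (open diamonds). The right panel plots the 5S ribosomal RNA control signal. All 5 complexes and the 5S control are lowest on wild type replicate 1.

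In photosystem II, all 15 members had changes above 0, with a median of 0.19 and a range of 0.06 to 0.85. The gene *psbN* encodes a small protein that in tobacco is needed to assemble photosystem II rather than being one of its subunits. Its signal was 1147.5, 803.1 and 1072.1 on the mutant arrays, against 413.5, 740.3 and 533.8 on the wild type arrays. The lowest mutant array and the highest wild type array were close, and the others were well apart. It rose by 0.85 ± 0.18 (SE) on the log2 scale, or 1.80-fold (limma adjusted p = 0.0391). The call was lost in 4 of the 6 fits that left out 1 array, and the range of its change over those fits was 0.65 to 1.06. Over all 18 alternatives it passed in 8, with adjusted p values of 0.0082 to 0.479. *psbN* lies between *psbT* and *psbH* on the opposite strand, and transcripts of the *psbB* cluster run across it. Which strand the probe set reads was not examined here, so that its value as a measure of *psbN* RNA alone is uncertain.

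Its neighbour *psbT*, for a small subunit, had signals of 2157.2, 1426.3 and 2231.1 in the mutant, against 1234.2, 1606.9 and 1314.5 in the wild type. Mutant replicate 2 fell below wild type replicate 2, so the groups overlapped. The change was 0.46 ± 0.15 (adjusted p = 0.215), and it passed when mutant replicate 2 was left out (0.67, adjusted p = 0.0396), a fit in which 0.276% of all tested probe sets were called higher. Its adjusted p over the alternatives reached 0.909. On the other side, *psbH*, for a small phosphoprotein, had a change of 0.12 ± 0.14.

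The inner antenna genes gave different pictures. *psbC* had signals of 9132.6, 8918.6 and 9221.1 in the mutant, against 7003.7, 8343.3 and 8074.3 in the wild type. The mutant arrays were close together and all above the wild type, and the change was small, 0.22 ± 0.09 (adjusted p = 0.357). *psbB* had signals of 5491.2, 2718.3 and 3798.5 in the mutant, against 1837.1, 3110.8 and 4583.4 in the wild type. Both groups spread widely, the change was 0.37 ± 0.27 (adjusted p = 0.645), and without wild type replicate 1 it was 0.02.

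The reaction centre genes did not separate the groups. *psbA* had signals of 4590.4, 2420.9 and 3620.7 in the mutant, against 2623.1, 3920.7 and 3192.1 in the wild type. Its lowest array was mutant replicate 2, and the change was 0.10 ± 0.19 (adjusted p = 0.895). *psbD* had 2217.6, 1841.5 and 1649.0 in the mutant, against 1149.6, 2050.5 and 1933.9 in the wild type, a change of 0.19 ± 0.18 (adjusted p = 0.745). Without wild type replicate 1 the changes were −0.05 for *psbA* and −0.08 for *psbD*.

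The remaining photosystem II genes encode small membrane subunits, and none had separate groups. *psbK* had the lowest change of the complex, 0.06 ± 0.12, with signals of 25612.0, 20495.7 and 20502.0 in the mutant, against 18190.7, 23408.3 and 22411.1 in the wild type. The other 8, *psbE*, *psbF*, *psbI*, *psbJ*, *psbL*, *psbM*, *psbZ* and *psbH*, had changes between 0.07 and 0.22. *psbE* was the single member for which all mutant arrays lay below wild type replicates 2 and 3, at 4759.7, 4376.4 and 4044.4 in the mutant, against 5189.5 and 4884.1 on those wild type arrays (background 13.9%). Wild type replicate 1, at 2567.7, placed its change at 0.12 all the same.

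In photosystem I no gene passed, and 4 of 5 had changes above 0, with a median of 0.07. *psaC* encodes the subunit that carries the terminal iron-sulphur clusters. Its signals were 2005.5, 1651.3 and 1851.2 in the mutant, against 735.5, 1703.0 and 1773.0 in the wild type. A single wild type array was low and the other 5 were alike. The change was 0.48 ± 0.24 (adjusted p = 0.448), and 0.07 without wild type replicate 1. The core genes *psaA* and *psaB*, whose products bind the reaction centre chlorophylls, had changes of 0.06 ± 0.22 (adjusted p = 0.949) and 0.16 ± 0.12 (adjusted p = 0.664). *psaA* varied widely among the wild type arrays, with signals of 4179.6, 4112.5 and 2684.2 in the mutant, against 2416.8, 5303.8 and 3147.0 in the wild type. *psaB* had 27437.2, 21809.6 and 23942.7 in the mutant, against 18634.2, 23603.7 and 23581.2 in the wild type. The small subunit genes *psaJ* and *psaI* had changes of 0.07 ± 0.11 and −0.01 ± 0.16. *psaI* averaged 6377 ± 1575 on mutant arrays, against 6374 ± 1167 on wild type arrays (SD, n = 3 each).

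In the cytochrome b6f complex all 6 genes had changes above 0 and none passed, with a median of 0.33, the highest of the complexes with more than 1 gene. With the RNA quality index as a covariate the median was 0.30, below photosystem II (0.37), the ATP synthase (0.40) and NDH (0.38). *petN*, for a small membrane subunit, had signals of 1651.4, 1203.4 and 1819.4 in the mutant, against 1046.3, 970.1 and 1242.7 in the wild type. Mutant replicate 2 lay just below wild type replicate 3, so the groups overlapped there alone. The change was 0.50 ± 0.14 (adjusted p = 0.131), and it was 0.48 without wild type replicate 1. *petN* passed when mutant replicate 2 was left out (0.67, adjusted p = 0.0396) and with the replicate block, and its highest adjusted p over the alternatives was 0.95.

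*petD*, for subunit IV, had signals of 694.5, 588.8 and 874.5 in the mutant, against 401.9, 548.2 and 564.6 in the wild type. The groups did not overlap, and the change was 0.49 ± 0.16 (adjusted p = 0.194). *petB*, for the cytochrome b6 protein, is cotranscribed with *petD* and had 26510.5, 20830.8 and 19907.7 in the mutant, against 17981.1, 23395.0 and 25354.7 in the wild type. Its change was 0.01 ± 0.14 (adjusted p = 0.983), so that these neighbours differed in what the array showed; the difference between them was not tested. *petG*, for another small subunit, had 1895.8, 1725.3 and 1604.3 in the mutant, against 879.5, 1620.4 and 1502.7 in the wild type. Its overlap was narrow, with mutant replicate 3 just below wild type replicate 2. The change of 0.43 ± 0.17 (adjusted p = 0.341) became 0.15 without wild type replicate 1. *petL* and *petA*, the gene of cytochrome f, had changes of 0.24 ± 0.10 and 0.23 ± 0.14.

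**Figure D3:**
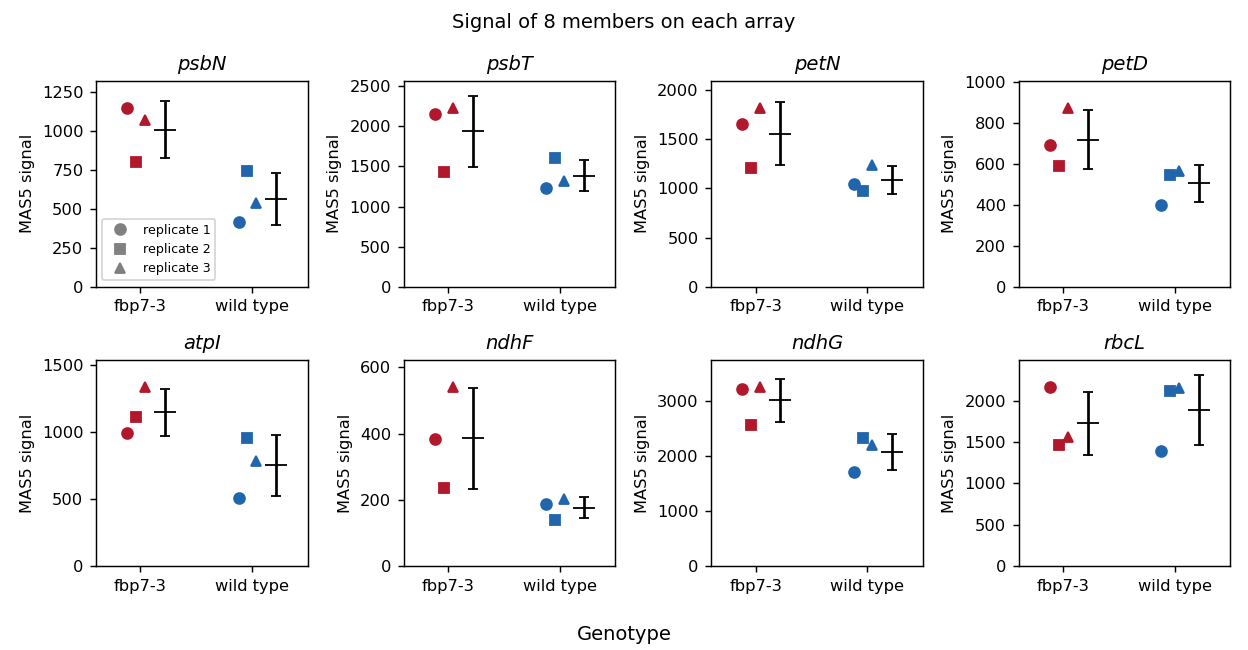
MAS5 signal of 8 members on each array, *fbp7-3* in red on the left and wild type in blue on the right of each panel, with the marker shape giving the replicate and the bar the mean ± SD (n = 3). The groups do not overlap for *psbN*, *petD*, *atpI*, *ndhF* and *ndhG*, and overlap for *psbT*, *petN* and *rbcL*.

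The 6 ATP synthase genes all had changes above 0, none passed, and the median was 0.24. *atpI*, which encodes the membrane subunit of the proton channel, had signals of 990.8, 1112.4 and 1335.7 in the mutant, against 508.6, 956.3 and 786.9 in the wild type. The groups did not overlap, although mutant replicate 1 and wild type replicate 2 nearly met. The change was 0.64 ± 0.18 (adjusted p = 0.133), and 0.38 without wild type replicate 1. *atpI* passed when wild type replicate 2 was left out (0.83, adjusted p = 0.0497), where 0.404% of all tested probe sets were called higher, and with the replicate block, and its adjusted p over the alternatives ran from 0.0344 to 0.838.

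*atpF*, for a stalk subunit in the membrane, had signals of 3373.6, 2784.2 and 2862.2 in the mutant, against 1724.6, 2829.7 and 2429.6 in the wild type, a change of 0.39 ± 0.15 (adjusted p = 0.291). *atpH*, for the subunit of the rotating ring, had 6550.2, 6274.1 and 7124.1 in the mutant, against 3736.7, 6054.5 and 6446.6 in the wild type, a change of 0.33 ± 0.16 (adjusted p = 0.428). In both genes wild type replicate 1 was far below the other 5 arrays, and without it the changes were 0.19 for *atpF* and 0.09 for *atpH*. The genes of the catalytic head had values nearer 0. *atpB*, for the beta subunit, had a change of 0.09 ± 0.10 (adjusted p = 0.794), with signals of 41493.5, 34207.4 and 36410.9 in the mutant, against 33921.2, 34540.3 and 36613.2 in the wild type. *atpA*, for the alpha subunit, and *atpE*, for the epsilon subunit, had changes of 0.09 ± 0.15 and 0.14 ± 0.13.

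In the NDH complex 9 of 10 genes had changes above 0, none passed, and the median was 0.20. *ndhF*, for a subunit of the membrane arm, had the largest change of all members. Its signals were 383.4, 235.1 and 540.5 in the mutant, against 186.7, 139.9 and 200.9 in the wild type. The groups did not overlap, but the mutant arrays differed widely from each other (386 ± 153, against 176 ± 31.9 in the wild type; SD, n = 3 each). The change was 1.01 ± 0.24 (adjusted p = 0.0607). Unlike most members, *ndhF* had its lowest signal on wild type replicate 2, and its change without wild type replicate 1 was 1.06 (adjusted p = 0.148). With the RNA quality index as a covariate its change was 0.35 (adjusted p = 0.946). *ndhF* passed in 3 of the 18 alternatives, those with median centring, with the replicate block and without mutant replicate 2 (lowest adjusted p, 0.00679).

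*ndhG* and *ndhE* lie side by side and encode further subunits of the membrane arm. *ndhG* had signals of 3220.8, 2572.5 and 3263.6 in the mutant, against 1704.5, 2337.3 and 2197.7 in the wild type, a change of 0.54 ± 0.13 (adjusted p = 0.0605). *ndhE* had 3457.6, 2605.5 and 3116.4 in the mutant, against 1904.8, 2586.7 and 2589.8 in the wild type, a change of 0.38 ± 0.13 (adjusted p = 0.246). The groups did not overlap in either gene, by a narrow margin for *ndhE*, and without wild type replicate 1 the changes were 0.40 for *ndhG* and 0.23 for *ndhE*. In the same cluster *ndhA* had the lowest change of the complex, −0.01 ± 0.15, with 8603.2, 6440.2 and 6659.1 in the mutant, against 5929.2, 9180.3 and 6978.0 in the wild type. The other 6 had changes between 0.03 for *ndhC* and 0.22 for *ndhJ*. They comprise *ndhC* and *ndhD* of the membrane arm and *ndhH*, *ndhI*, *ndhJ* and *ndhK* of the arm that faces the stroma. *ndhH* varied widely in the wild type, at 469.9, 536.6 and 510.7 in the mutant, against 342.8, 797.6 and 343.4 in the wild type.

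*rbcL*, for the large subunit of Rubisco, had the lowest change of all members, −0.12 ± 0.17 (adjusted p = 0.844). Its signals were 2163.2, 1456.1 and 1564.0 in the mutant, against 1392.2, 2111.1 and 2152.6 in the wild type. Each group had 1 array on the other group's side, and in both it was replicate 1. Leaving out wild type replicate 1 gave −0.32. With both arrays numbered 1 left out, a choice made after the values were seen, it was −0.49 (adjusted p = 0.0481), the only member that passed in that fit, where 0.569% of all tested probe sets were called lower. With the RNA quality index as a covariate it was 0.15 (adjusted p = 0.978). Over the 18 alternatives its adjusted p ran from 0.0481 to 0.994.

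**Figure D4:**
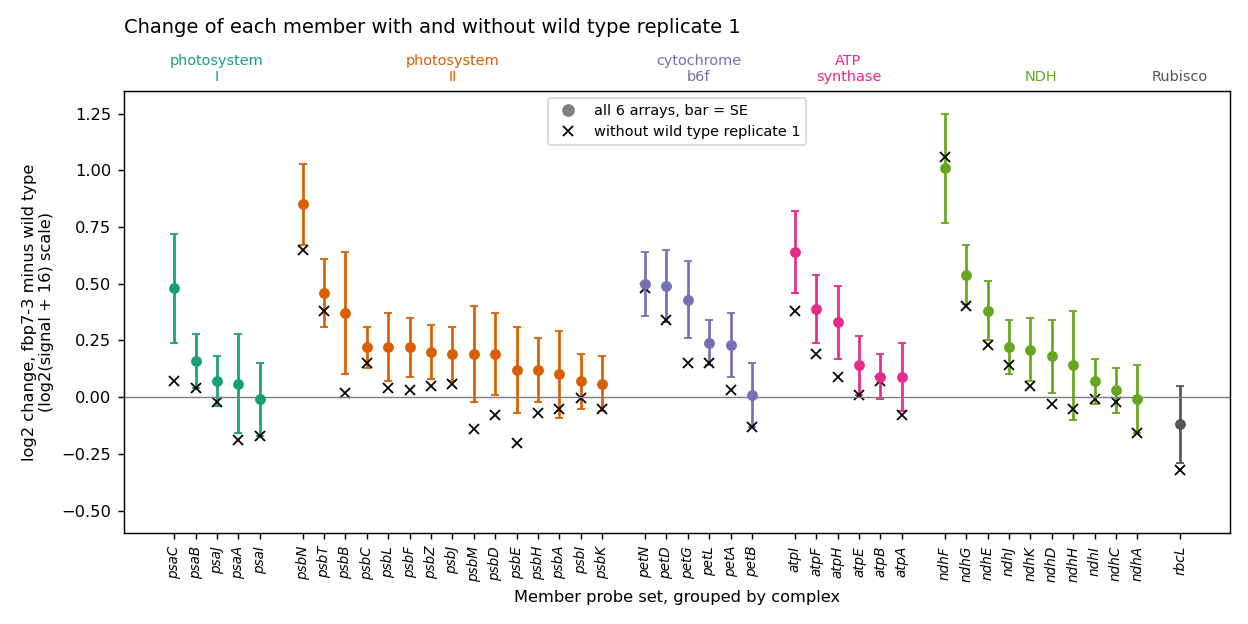
Log2 change, *fbp7-3* minus wild type, for each member by complex, from all 6 arrays (circles, with SE) and without wild type replicate 1 (crosses). The crosses lie near 0 or below it for most members, and *ndhF*, *psbN* and *petN* are among those that stay furthest above 0.

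The complexes lay close together. Without wild type replicate 1 the median change was −0.02 in photosystem I, 0.02 in photosystem II, 0.15 in cytochrome b6f, 0.08 in the ATP synthase and 0.02 in NDH. The members with changes above 0 then numbered 2 of 5, 8 of 15, 5 of 6, 5 of 6 and 5 of 10, against 48.6% of all tested probe sets. On wild type replicate 1 itself the centred medians were −0.31, −0.45, −0.41, −0.49 and −0.41 in the same order of complexes, so that all of them were low on that array. The median within-group SD over members was 0.19 among the mutant arrays and 0.28 among the wild type arrays on the log2 scale, against 0.16 and 0.17 over all tested probe sets. No p is given for differences between complexes, since the members had been chosen with results known.

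Genes that are neighbours in a transcription cluster share transcripts and are not independent. The spread of changes differed among the clusters, and differences within a cluster were not tested. In the *psbB*, *psbT*, *psbH*, *petB* and *petD* cluster changes ran from 0.01 for *petB* to 0.49 for *petD*. In the *atpI*, *atpH*, *atpF* and *atpA* cluster they ran from 0.09 for *atpA* to 0.64 for *atpI*, at the opposite ends of the cluster. In the cluster of *ndhH*, *ndhA*, *ndhI*, *ndhG*, *ndhE*, *psaC* and *ndhD* they ran from −0.01 for *ndhA* to 0.54 for *ndhG*. Other clusters were narrower, and most of them held fewer genes. Changes were 0.07 to 0.43 for *petL*, *petG* and *psaJ*, and 0.03 to 0.22 for *ndhC*, *ndhK* and *ndhJ*. They were 0.12 to 0.22 for *psbE*, *psbF*, *psbL* and *psbJ*, and 0.19 to 0.22 for *psbD*, *psbC* and *psbZ*. The pairs held 0.06 and 0.16 for *psaA* and *psaB*, 0.06 and 0.07 for *psbK* and *psbI*, and 0.09 and 0.14 for *atpB* and *atpE*.

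The other 26 plastid-encoded probe sets, mostly for the gene expression machinery, had a median change of 0.12, with 21 above 0 and none that passed. Without wild type replicate 1, 15 of 26 lay above 0, with a median of 0.01. They were lower on wild type replicate 1 as well, at a median of −0.28 against the other wild type arrays, and had their lowest signal there in 17 of 26. The difference from the photosynthetic genes was not tested.

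Nuclear genes for subunits and partners of the same complexes were thinly covered, with 11 of 62 listed genes tested. None passed, 9 had changes above 0, and the median was 0.16, or 0.14 without wild type replicate 1. *LHCB4.2*, for a minor antenna protein of photosystem II, had signals of 9253.0, 6486.7 and 8177.7 in the mutant, against 6700.5, 5993.6 and 6325.1 in the wild type, a change of 0.32 ± 0.12 (adjusted p = 0.285). *LHCB4.1*, its close relative, had a change of 0.24 ± 0.10 (adjusted p = 0.345). Wild type replicate 1 was the lowest of the 6 arrays for 3 of the 11 nuclear genes, *PSAE-1*, *PSBW* and AT2G26500, and the highest wild type array for 5, *LHCB4.2* among them. In photosystem I, *PSAN* and *PSAE-1* had changes of 0.16 ± 0.09 and 0.15 ± 0.11, and 0.15 and 0.07 without wild type replicate 1. AT2G26500, a subunit gene of the cytochrome b6f complex, had a change of 0.19 ± 0.10. *ATPC2* and *ATPC1*, for the gamma subunit of the ATP synthase, had changes of 0.22 ± 0.16 and 0.10 ± 0.09. *NdhL* and *NdhN* had changes of −0.15 ± 0.11 and −0.12 ± 0.12, and wild type replicate 1 was the highest wild type array for both. Without it their changes were −0.10 and 0.0038. Of 17 nuclear genes for plastid gene expression 1 was tested, AT5G15700, which encodes a phage-type RNA polymerase of organelles. Its signals were low, at 82.1, 72.2 and 74.1 in the mutant, against 113.8, 88.7 and 91.4 in the wild type, a change of −0.30 ± 0.24 (adjusted p = 0.677), or −0.20 without wild type replicate 1.

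Markers of other tissues stood beside these values without passing, and none of the 3 flower markers was tested. The 3 tested root and root hair markers had a median change of −0.44, with summed signals of 304 to 388 in the mutant, against 377 to 585 in the wild type. Among them AT3G49960, a peroxidase gene, had a change of −0.75 ± 0.25 (adjusted p = 0.218), and *EXPA18*, a root hair expansin gene, −0.30 ± 0.18 (adjusted p = 0.558). Without wild type replicate 1 their changes were −0.71 and −0.14, and the median of the 3 was −0.36. Signals of the 3 were low, at 66.1 to 176.1 for AT3G49960, 46.8 to 170.2 for *EXPA7* and 160.4 to 300.9 for *EXPA18*. Array medians were 188.7 to 200.7. The 2 tested green tissue markers summed to 28015 to 35598 in the mutant, against 24993 to 27288 in the wild type. The single tested seed marker, the isocitrate lyase gene *ICL*, had a signal of 51.1 to 161.2 in the mutant, against 88.5 to 404.8 in the wild type (change −1.05, adjusted p = 0.325). In whole seedlings, a change in the share of green cells and a change in RNA per cell cannot be told apart. The part of tissue make-up in the members' values was not tested.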

How the data were processed

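The authors deposited intensities computed with MAS5, per the submitters' processing notes, from 1 array per sample. Its version and settings were not given in the sources used here. After the lowest and highest 2% of values were left out, every array had a mean of 500, so each had been scaled by 1 factor. No detection calls were used.

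Probe sets were named from the platform's annotation (13513 with 1 gene, 503 with several, 8730 not listed) and RefSeq TAIR10.1, which held 13436 of the 13513. No coordinates are given, since no build is named for the array. The 64 control probe sets were left out of the test. The deposited intensity was turned into log2(signal + 16), the lowest 25% by mean were left out, and limma 3.58.1 in R 4.3.3 (lmFit, eBayes with intensity trend) compared the groups, with Benjamini-Hochberg adjustment over 17059 probe sets and a threshold of 0.05. SEs rest on moderated variances (10.4 prior and 4 residual degrees of freedom). Control signals were compared with exact permutation tests. The fit was tested in 20 simulations with independent normal noise. It recovered 34.1% of log2 changes of 0.5 and 81.3% of log2 changes of 1, so changes of 0.5 were often missed. Of the calls, 6.9% were false.

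The members and lists were chosen with earlier results of these data known. Members were named if they passed, had the 3 smallest p, the highest or the lowest change of their complex, or were core subunits (25 genes); from each list the 2 with the smallest p were named. Further genes were singled out with their values in view. The alternatives changed the pseudocount (to 1 and 64), the filter, the normalization, the variance model and the weights of arrays, added a replicate block or an RNA quality covariate, or left out each array in turn. A further alternative left out both arrays numbered 1. It was chosen after the values were seen and is counted among the 18. Same-numbered arrays did not deviate together (r = −0.0049, −0.0246 and −0.0318), so they were not paired. Figures were drawn with matplotlib 3.10.9.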

Additional observations from a re-analysis of the deposited data

How the results depend on the processing

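The number of members called, 1, was 0 with no filter on dim probe sets, without the intensity trend, with robust eBayes, with array weights and with the RNA quality covariate, 3 with median centring (*psbN*, *ndhF*, *ndhG*) and 4 with the replicate block (*psbN*, *ndhF*, *atpI*, *petN*), and between 0 and 4 when 1 array was left out. The numbers pair no samples by the labels, and deviations from the group means correlated at no more than 0.0344 between any mutant and any wild type array. The 180 calls over all probe sets became 75 with no filter, 6 without the trend and 24 with the covariate. They became 179 with robust eBayes, 205 with array weights, 179 with median centring and 211 with the replicate block. When 1 array was left out they numbered 74 to 248. Medians of the members, photosystem I and II, cytochrome b6f, ATP synthase and NDH ran from 0.03 to 0.32, −0.02 to 0.21, 0.02 to 0.31, 0.15 to 0.42, 0.08 to 0.34 and 0.02 to 0.29 when 1 array was left out. The covariate gave medians of 0.29 in photosystem I and 0.32 in the other plastid-encoded genes. With both arrays numbered 1 left out the median was −0.03 over the members, 0.10 in cytochrome b6f and −0.04 in the other plastid-encoded genes.

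Of 25 named members, signs changed with both arrays numbered 1 left out for *psaB* (−0.05), *psaJ* (−0.03), *psbK* (−0.16), *petB* (−0.26), *atpB* (−0.01), *psaA* (−0.30), *psbA* (−0.26), *psbB* (−0.23) and *psbD* (−0.19). Under quantile normalization they changed for *psaJ* (−0.0017), *psbK* (−0.05), *petB* (−0.09) and *atpB* (−0.01), with array weights for *petB* (−0.02) and *psbA* (−0.0025), and with the covariate for *psaI* (0.28), *ndhA* (0.30) and *rbcL* (0.15). When 1 array was left out they changed within −0.02 to 0.16 for *psaJ*, −0.20 to 0.12 for *psaI*, −0.05 to 0.13 for *psbK*, −0.13 to 0.12 for *petB*, −0.16 to 0.16 for *ndhA*, −0.19 to 0.38 for *psaA*, −0.11 to 0.35 for *psbA* and −0.08 to 0.34 for *psbD*. None of these was called, and the cause was not tested. Signals of the brightest members lay near the top of the measured range, and the linearity there could not be examined.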

Other observations

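Plastid genes that lie in the inverted repeat have their signal on probe sets shared by both copies and were not members. The *ndhB* probe set had signals of 675.3, 584.1 and 868.5 in the mutant, against 438.1, 479.8 and 611.0 in the wild type, a change of 0.46 ± 0.16 on the log2 scale (limma adjusted p = 0.228). Mutant replicate 2 lay below wild type replicate 3, and wild type replicate 1 was again the lowest array. Of the 8 plastid probe sets with several genes, none passed. The *rpl2* probe set, for a ribosomal protein, had a change of 0.02 ± 0.09, and it was nearly level over the arrays, at 26066.7, 23562.9 and 23573.8 in the mutant, against 23481.4, 24073.6 and 24499.8 in the wild type. The *rpl23* probe set beside it had 18810.3, 17062.8 and 14748.5 in the mutant, against 11408.2, 17761.9 and 16009.9 in the wild type, a change of 0.18 ± 0.14 with wild type replicate 1 far below the other 5 arrays.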
